A study of Mus musculus with 48 samples.

Results

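The cytosolic ribosomal protein genes encode the protein part of the ribosome: the small subunit, which reads the mRNA, and the large subunit, which joins amino acids into protein. Their mRNAs are known as 5′ TOP mRNAs (terminal oligopyrimidine), because they begin with a C and a run of pyrimidines, and their translation is raised by the growth-sensing kinase mTORC1 through the RNA-binding protein LARP1. In rodent liver, ribosome production is known to follow daily feeding, and the counts described here measure polyA RNA only, not its translation. Members were the lines of the count table whose symbol has the form of a numbered Rpl or Rps gene, Rplp0, Rplp1, Rplp2 or Rpsa and that reached 10 counts in at least 3 libraries. This gave 77 members of 22354 lines, 45 of the large and 32 of the small subunit. Of 79 lines with such a symbol, Rpl39l and Rpl3l stayed out, with a third-highest count of 2 and 3 in any library. The lowest member by that measure, Rps13, had 2259, so the count minimum decided no close case, and all 77 members passed the filter on low counts.

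RNA came from whole livers of female C57BL/6J mice labelled KO (23 mice) or WT (25 mice) for Bmal1, a core transcription factor of the circadian clock, which the study deleted in adipocytes. Livers were collected at zeitgeber times (ZT, hours after lights-on of the earlier light cycle) 0, 4, 8, 12, 16 and 20, with 4 mice per genotype and time except ZT16, which had 3 KO and 5 WT mice. All mice, KO and WT, had spent 1 day in constant darkness and had been fasted for 24 h. Mice were 28.75 to 105 weeks old, and mean age was the same in KO and WT at each time except ZT16 (60.3 weeks in KO and 73.4 weeks in WT), while at ZT20 it was 42.1 weeks in both. The labels do not give the Cre driver or the controls' alleles. The liver is not the tissue of the deletion, and Arntl, the symbol of Bmal1, was not called in liver over all times (log2 KO minus WT 0.30, SE 0.16, edgeR quasi-likelihood test, Benjamini-Hochberg adjusted p = 0.347). At single times its difference had either sign, with 9.54 ± 2.75 CPM in KO livers and 21.1 ± 9.30 CPM in WT livers at ZT4 (SD, n = 4 each, edgeR adjusted p = 0.132), and 6.34 ± 5.15 CPM in KO livers and 2.02 ± 1.12 CPM in WT livers at ZT12 (SD, n = 4 each, edgeR adjusted p = 0.498). Its genotype by time interaction was not called either (edgeR unadjusted p = 0.000529, adjusted p = 0.509).

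Libraries held 12841969 to 13009797 counts without Alb, a line whose values are not plain counts and that was left out. The members together made up 2% to 3.91% of these counts in KO livers (mean 2.80% ± 0.522, SD, n = 23) and 2.02% to 4.06% in WT livers (2.76% ± 0.559, SD, n = 25). Hepatocyte markers summed to 24200 to 62400 CPM (counts scaled to the size of the library) in KO livers and 31500 to 57700 CPM in WT livers. Of the 6 adipocyte markers, 3 had enough counts to be tested, and the 6 summed to 21.0 to 101 CPM in KO livers and 16.7 to 66.2 CPM in WT livers. In these bulk samples, fewer cells of a type and less RNA per cell cannot be told apart. Libraries also differed in how their counts moved with the GC content of genes. This GC slope, the change in log2 CPM per 10 percentage points of GC over 9641 genes, ran from −0.81 to 0.62 in KO livers and from −0.66 to 0.60 in WT livers, and is given beside the results it moved with.

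RefSeq start sites on mouse build GRCm38.p6 were available for 57 of the 77 members, in 68 windows of 250 bases before and 50 after the annotated start. A tract of a C followed by 4 or more C or T, beginning within 5 bases of the start and read on the gene's own strand, stood in 22 of the 68 windows (32.4%), against 14.8% of all 32851 windows in the table. The tracts of 8 members are shown because they are the feature for which these mRNAs are named. These are the 8 with the smallest p for the shared rhythm described further on among the members that hold one. Each line gives 10 bases before and 20 from the annotated start, with the tract in capitals.
Rps6, chr4:86857348-86857377, minus strand: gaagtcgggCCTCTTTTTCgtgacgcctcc
Rps23, chr13:90923112-90923141, plus strand: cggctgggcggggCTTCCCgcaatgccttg
Rpl19, chr11:98026700-98026729, plus strand: aaacgCCCTCactgcgcatgtgcgccgcgg
Rpl27a, chr7:109519185-109519214, plus strand: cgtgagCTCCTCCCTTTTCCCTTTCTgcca
Rps27, chr3:90213629-90213658, minus strand: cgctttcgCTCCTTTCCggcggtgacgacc
Rpl35a, chr16:33056472-33056501, plus strand: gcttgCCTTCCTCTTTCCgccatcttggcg
Rps27l, chr9:66946076-66946105, plus strand: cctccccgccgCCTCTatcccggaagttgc
Rps21, chr2:180257369-180257398, plus strand: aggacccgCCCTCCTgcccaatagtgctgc
The tract was 20 letters long in Rpl27a, 13 in Rpl35a, 10 in Rps6 and 5 in Rpl19 and Rps27l. Annotated starts can lie some bases from the start used in liver, and no match says only that these letters are not in this place.

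Among sequence motifs searched on both strands of the 300-base windows, GGAAGT, the core bound by ETS factors such as GABP, stood in 47.1% of the members' windows and 23.8% of all windows. GGGCGG, the SP1 core, stood in 60.3% of the members' windows and 35.7% of all, and AAGATGGC, the YY1 core, in 10.3% and 2.75%. TATAAA stood in 8.82% of the members' windows and 13.6% of all, and the E-box CACGTG, the site of the Clock and Bmal1 pair, in 11.8% and 7.15%. None of these motifs contains another, and a match is a description of letters, not of binding. The promoters of 3 members are printed because these genes differ in the results that follow: Rps4x, called rhythmic in both genotypes, Rpsa, which moved with most members, and Rplp2, which did not. They cover the 250 bases before the annotated start on GRCm38.p6, with the motifs above in capitals.
Rps4x, chrX:102189392-102189641, minus strand: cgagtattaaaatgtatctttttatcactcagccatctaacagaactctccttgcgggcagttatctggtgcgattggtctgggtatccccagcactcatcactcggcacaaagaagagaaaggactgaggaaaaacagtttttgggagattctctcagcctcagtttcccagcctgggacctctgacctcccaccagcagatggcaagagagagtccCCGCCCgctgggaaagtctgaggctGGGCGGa
Rpsa, chr9:120127516-120127765, plus strand: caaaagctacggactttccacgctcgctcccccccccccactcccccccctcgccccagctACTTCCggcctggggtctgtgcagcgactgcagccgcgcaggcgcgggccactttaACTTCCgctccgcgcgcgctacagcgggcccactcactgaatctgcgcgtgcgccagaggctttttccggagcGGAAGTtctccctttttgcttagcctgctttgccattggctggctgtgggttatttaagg
Rplp2, chr7:141447401-141447650, plus strand: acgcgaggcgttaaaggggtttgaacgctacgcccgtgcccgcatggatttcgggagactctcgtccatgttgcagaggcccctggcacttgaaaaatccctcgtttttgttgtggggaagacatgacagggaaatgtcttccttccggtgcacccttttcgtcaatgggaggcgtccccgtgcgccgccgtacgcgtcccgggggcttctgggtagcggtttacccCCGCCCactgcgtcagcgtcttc
The Rpsa promoter held the GGAAGT core at −189, −133 and −60 bases from the start, the first 2 on the opposite strand. Rps4x held the GGGCGG core at −32 and −7, and Rplp2 held it at −23.

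Mean levels ran from 116 CPM (Rps13) to 855 CPM (Rpl4) in KO livers and from 127 CPM (Rps13) to 824 CPM (Rpl4) in WT livers. Per kilobase of coding length, averaged over all 48 libraries, the highest levels were those of Rps29 (1880 CPM per kb), Rplp1 (1580 CPM per kb) and Rps27 (1490 CPM per kb). The lowest were Rps13 (270 CPM per kb), Rpl15 (300 CPM per kb) and Rpl3 (301 CPM per kb). This length leaves out untranslated regions, whose reads the counts may hold, so the ranking is not one of mRNA copies. Ribosomal proteins are made in near equal number for each ribosome, apart from the stalk proteins Rplp1 and Rplp2, of which a ribosome carries more than a single copy. The large subunit members summed to 1.16% to 2.19% of counts in KO livers (median 1.56%) and 1.17% to 2.29% in WT livers (median 1.53%). The small subunit members summed to 0.840% to 1.72% in KO livers (median 1.18%) and 0.851% to 1.77% in WT livers (median 1.16%). For both subunits the ranges of KO and WT livers covered nearly the same span. Ribosomal protein genes have many processed pseudogenes that share their sequence. The 126 lines of the table named as such pseudogenes took 0.00496% to 0.0100% of counts in KO livers and 0.00483% to 0.00932% in WT livers, and how the counting split reads between them and the members is not given in the sources used here. The line named Rpl24 spans chr16:55966388-56009026 on build mm9 under an identifier that GENCODE M21 gives to Zbtb11, so its values may hold reads of a neighbour.

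The first comparison asked whether the loss of Bmal1 in adipocytes changed these genes in liver over the whole day. No member was called, while 1.40% of all 13646 genes tested were (191 genes, edgeR quasi-likelihood test, Benjamini-Hochberg adjusted p under 0.05), 0.623% higher and 0.777% lower in KO livers. No member had an unadjusted p under 0.05 either, while 17.1% of all genes did, and DESeq2 also called none. The median log2 KO minus WT of the members was 0.05, with 56 members above 0 and 21 below, against a median of 0.00 over all genes. The members ran from −0.21 to 0.17, with a median SE of 0.09. The 95% interval lay within 0.5 log2 units of 0 for 76 of 77 members, and the exception was Rplp2, whose interval reached −0.52. Large and small subunit members had the same median of 0.05, with 33 of 45 and 23 of 32 above 0.

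**Figure D1:**
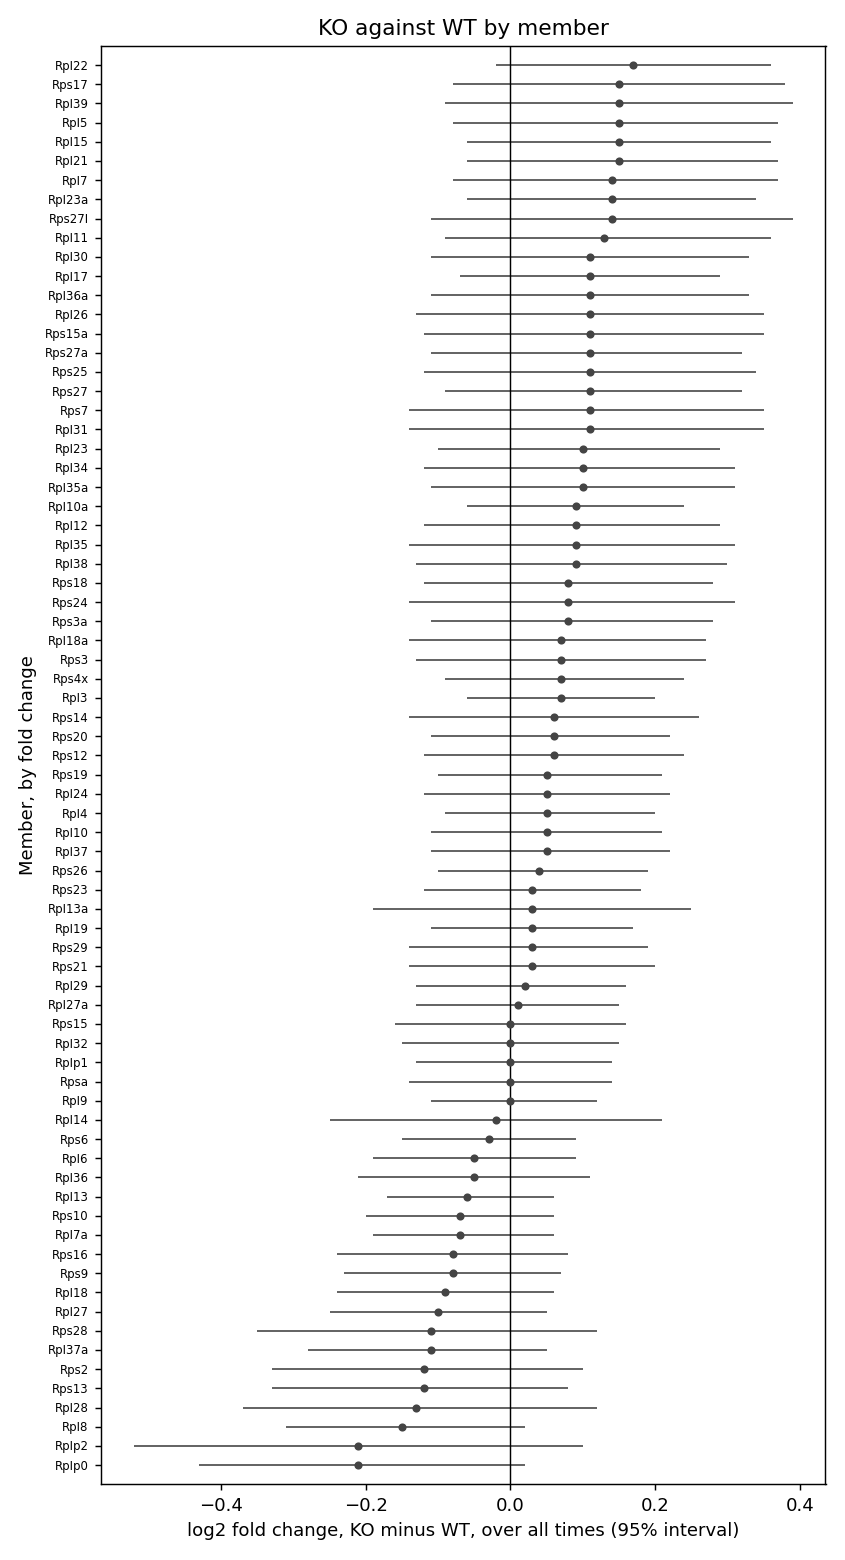
Log2 fold change of KO minus WT over all times for 74 members (x axis), ordered by value (y axis), with 95% intervals from the edgeR model over 48 libraries. All intervals include 0, and only that of Rplp2 reaches below −0.5.

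The members with the smallest p on the positive side were Rpl22, Rpl15, Rpl21, Rpl23a and Rpl5, and on the negative side Rplp0, Rpl8, Rplp2, Rpl37a and Rpl27. None of these 10 passed the test. Rpl22, a large subunit protein with a paralog, Rpl22l1, lay at 171 to 466 CPM in KO livers (median 231) and 155 to 387 CPM in WT livers (median 198). Its log2 KO minus WT was 0.17 (SE 0.09, edgeR quasi-likelihood test, Benjamini-Hochberg adjusted p = 0.341). Rpl5, which with Rpl11 and 5S rRNA forms a particle that can bind the p53 regulator Mdm2, lay at 312 to 892 CPM in KO livers (median 423) and 277 to 748 CPM in WT livers (median 358), a log2 difference of 0.15 (SE 0.11). Its partner Rpl11 had a log2 difference of 0.13 (SE 0.11). The ranges of KO and WT livers overlapped over most of their length for each of these genes. For Rpl15, Rpl21 and Rpl23a the log2 difference was 0.15, 0.15 and 0.14, with SEs of 0.10 to 0.11.

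Rplp0, Rplp1 and Rplp2 form the stalk that recruits elongation factors to the ribosome, and none of them was called. Rplp0, the base of the stalk, lay at 172 to 562 CPM in KO livers (median 363) and 244 to 754 CPM in WT livers (median 427). Its log2 KO minus WT was −0.21 (SE 0.11, edgeR adjusted p = 0.341). Rplp2 lay at 81.4 to 252 CPM in KO livers (median 119) and 76.0 to 334 CPM in WT livers (median 130), a log2 difference of −0.21 (SE 0.15). Rplp1, the third stalk protein, had 543 ± 94.9 CPM in KO livers (SD, n = 23) and 540 ± 90.5 CPM in WT livers (SD, n = 25), a log2 difference of 0.00 (SE 0.07). Rpl8, a protein near the catalytic centre of the large subunit, differed by −0.15 (SE 0.08), Rpl37a by −0.11 (SE 0.08) and Rpl27 by −0.10 (SE 0.07). The differences moved with the GC slope, whose mean was −0.10 in KO livers and 0.09 in WT livers. With the slope as a covariate the members' median was −0.03 and 15 of 77 were above 0, against 0.05 and 56 without it, and again none was called. Rpl15 (−0.0018), Rpl5 (−0.0043) and Rplp2 (0.01) then changed sign.

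At single times, no member was called at any of the 6 times by edgeR or by DESeq2. Of all genes, 0.0147% were called at ZT0, 0.0366% at ZT4, 0.0220% at ZT16 and 0% at ZT8, ZT12 and ZT20. Members had unadjusted p under 0.05 at ZT4 (32 members) and ZT16 (2 members) and at no other time, while 1.82% to 23.3% of all genes had. The median log2 KO minus WT of the members for ZT0 to ZT20 in order was −0.10, 0.36, −0.18, 0.06, 0.06 and 0.09, against medians from −0.01 to 0.01 over all genes. At ZT0, 70 of 77 members lay below 0, and at ZT8, 69 did. The median SE at a single time was 0.23, and the medians at times other than ZT4 were smaller than it. The members of smallest p were Rps16 (−0.32, SE 0.19), Rpl13 and Rps6 at ZT0, Rpl34 (−0.36, SE 0.26), Rps18 and Rpl26 at ZT8, and Rplp2 (−0.57, SE 0.37), Rpl3 and Rpl8 at ZT12. At ZT16 they were Rpl37a (−0.45, SE 0.21, edgeR adjusted p = 0.731), Rpl18 and Rpl27, all lower in KO livers, and at ZT20 they included Rpl29 (0.30, SE 0.18) and Rps26. Other scalings of the libraries, by DESeq2's size factors or without the members, left the sign of these medians as it was at each time. The GC slope as a covariate did not: the median was then −0.04 at ZT12, with 22 members above 0 against 66 without it, and −0.09 at ZT16, with 8 above 0 against 45.

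ZT4 was the time at which the members stood highest in KO livers relative to WT livers, with 60 above 0 and 32 with an unadjusted p under 0.05, against 23.3% of all genes. The summed share of the members was 2.68% to 3.51% in KO livers at ZT4, against 2.21% to 3.09% in WT livers. The groups overlapped, since the lowest KO liver was below both of the higher WT livers. Rpl23, another large subunit protein that can bind Mdm2, had 515, 731, 759 and 924 CPM in KO livers at ZT4, against 437, 448, 499 and 532 CPM in WT livers. Rps18, of the head of the small subunit, had 545, 856, 858 and 1060 CPM in KO livers, against 466, 506, 570 and 593 CPM in WT livers. Rps25 had 273, 494, 549 and 642 CPM in KO livers, against 254, 254, 330 and 357 CPM in WT livers. In each of these, 3 KO livers lay above all WT livers and the lowest, replicate 1, lay among them. Their log2 differences were 0.61 (SE 0.23), 0.64 (SE 0.24) and 0.71 (SE 0.27), with edgeR adjusted p-values of 0.144, 0.147 and 0.148. Rps27l, a paralog of Rps27 that p53 can induce, showed the largest difference, 0.76 (SE 0.30), with 153, 251, 371 and 404 CPM in KO livers and 161, 164, 183 and 189 CPM in WT livers.

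The GC slope moved with this difference. It was 0.52 in KO ZT4 replicate 1 and −0.81, −0.69 and −0.33 in the other KO livers, against −0.03 to 0.55 in WT livers at ZT4. With the slope as a covariate the median at ZT4 was 0.13, and no member had an unadjusted p under 0.05. Without KO ZT4 replicate 1, 23 members were called at ZT4, 22 of them higher in KO livers and Rplp0 lower (log2 −0.88, SE 0.28, edgeR adjusted p = 0.0253), but 24.6% of all genes were then called too, so the members' share was near the background. Neither the genotype by time interaction nor the difference in rhythm called a member by edgeR or DESeq2, where each called 0.00733% of all genes by edgeR. No member had an unadjusted p under 0.05 in either test, against 447 and 363 of all genes. Rps18, Rpl26 and Rpl7 had the smallest p for the interaction (edgeR, 0.112, 0.159 and 0.172), each with an adjusted p of 0.953.

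The next comparison was between times of day, first as a description of the means. In KO livers the group mean was highest at ZT4 for 38 and at ZT12 for 33 of the 77 members, and lowest at ZT0 for 70. In WT livers it was highest at ZT8 for 48 and at ZT12 for 22, and lowest at ZT0 for 44 and at ZT20 for 30. The summed share in KO livers averaged, for ZT0 to ZT20 in order, 2.22%, 3.14%, 2.91%, 3.16%, 2.84% and 2.53%. In WT livers it averaged 2.35%, 2.67%, 3.40%, 3.01%, 2.69% and 2.46% in the same order. The SD within a group was 0.244 to 0.947 points in KO livers and 0.271 to 0.733 in WT livers, and neighbouring times overlapped, except ZT0 and ZT4 in KO livers, where the highest at ZT0 was 2.51% and the lowest at ZT4 2.68%.

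**Figure D2:**
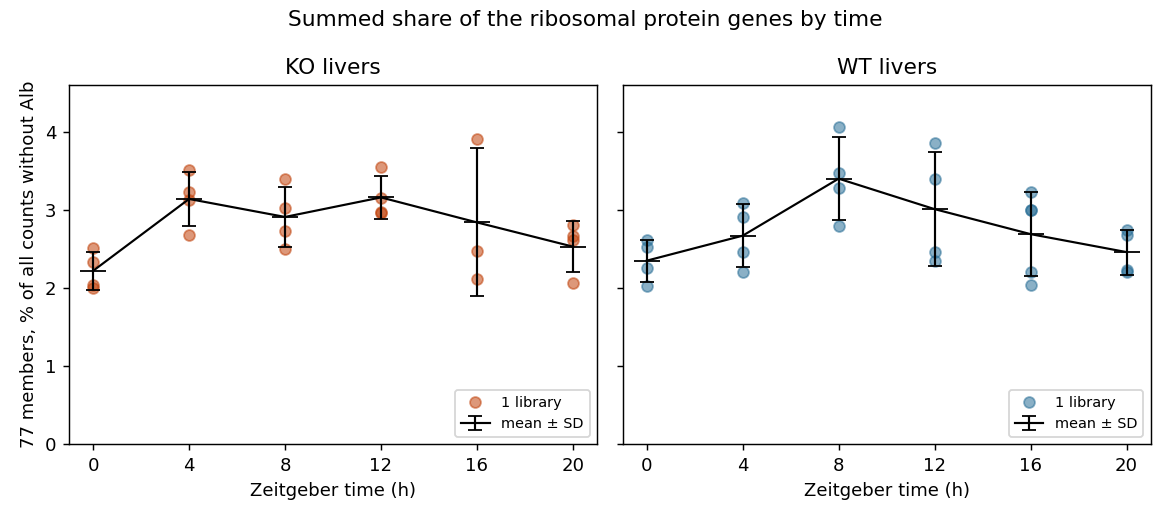
Summed share of the 77 members in all counts without Alb (y axis, percent) by zeitgeber time (x axis, hours) in KO livers (left) and WT livers (right). Points are libraries, bars the mean ± SD, and the lowest mean is at ZT0 in both genotypes (2.22% in KO and 2.35% in WT).

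A 24 h cosine fitted per genotype called 9 of 77 members (11.7%) in KO livers, where 17% of all genes were called, and 18 of 77 (23.4%) in WT livers, where 16.3% were called (edgeR, Benjamini-Hochberg adjusted p under 0.05). Of these, 8 were called in both genotypes: Rpl3, Rpl29, Rpl36, Rps4x, Rps6, Rps16, Rps19 and Rps26. Rpl10 was called in KO livers and 10 members in WT livers alone, but no member passed the test of the difference in rhythm. Rplp2 came nearest to one (amplitude 0.04, SE 0.13, in KO livers and 0.30, SE 0.17, in WT livers, edgeR unadjusted p = 0.306). The fitted amplitude, the log2 distance from mean to peak, had a median of 0.24 in KO livers (range 0.02 to 0.35) and 0.26 in WT livers (0.04 to 0.34). The peak had a median of 9.92 h in KO livers and 10.2 h in WT livers, and fell between 8 and 14 h for 71 and 75 members. The share of all genes that peaked in this window is not given here, so counts in it, here and further on, are a description. A test for any difference among the 6 times called 4 members in KO livers, where 9.73% of genes were called, and none in WT livers, where 8.55% were. The unadjusted p in that test was under 0.05 for 47 members (26.9% of all genes) in KO livers and 19 members (24% of all genes) in WT livers.

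**Figure D3:**
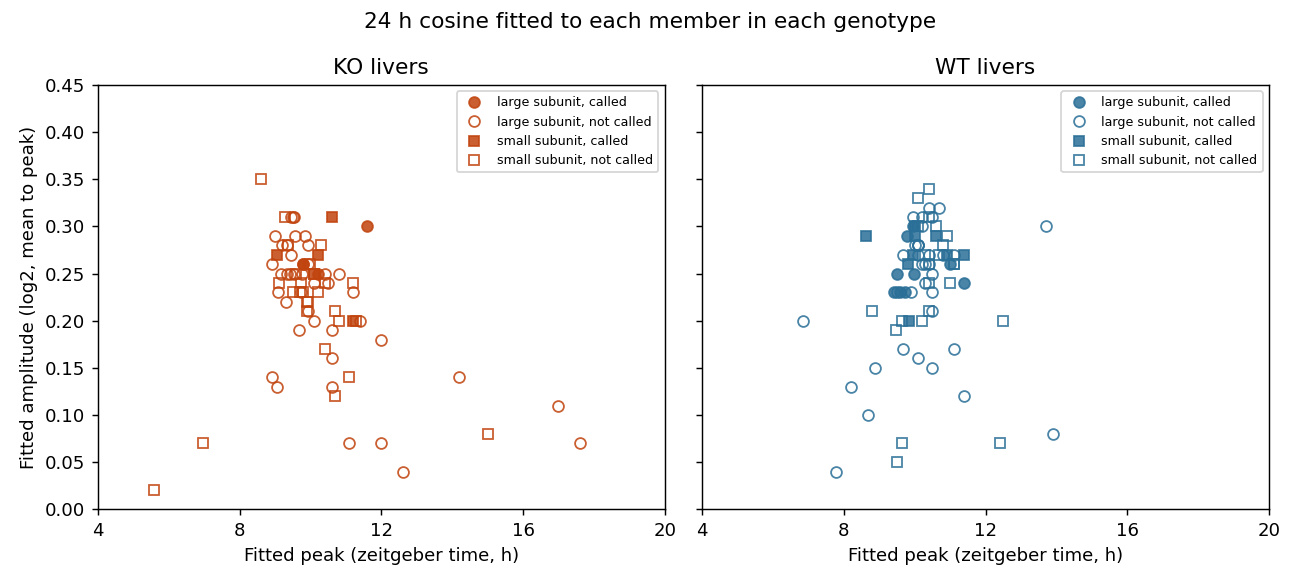
Fitted amplitude (y axis, log2 from mean to peak) against fitted peak time (x axis, zeitgeber time in hours) of the 77 members in KO livers (left) and WT livers (right). Circles are large and squares small subunit members, filled where the rhythm was called, and most members gather near 10 h in both genotypes.

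With a single 24 h rhythm shared by both genotypes, a fit added after the data had been seen, 65 of 77 members were called (84.4%), where 43.7% of all genes were. They were 37 of 45 large and 28 of 32 small subunit members. Of the 65, 46 had been called in neither genotype alone. The shared amplitude had a median of 0.25 (range 0.02 to 0.33), and the shared peak a median of 10.1 h, between 8 and 14 h for 75 members. Both subunits had a median amplitude of 0.25 in each and a median peak of 9.96 h for large and 10.3 h for small subunit members. Leaving out any one library left 57 to 66 members called, with the share of all genes not given here.

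Rpl3, which lies close to the catalytic centre of the large subunit and has a muscle paralog, Rpl3l, had the smallest p. Its mean in KO livers, for ZT0 to ZT20 in order, was 298, 373, 365, 492, 408 and 305 CPM (SD 11.7 to 77, n = 3 or 4). In WT livers it was 300, 359, 367, 427, 386 and 287 CPM (SD 24.5 to 63.9, n = 4 or 5). Both genotypes were highest at ZT12, where the KO livers had 453, 465, 486 and 564 CPM and the WT livers 380, 407, 423 and 498 CPM. At ZT0 the KO livers had 248, 299, 319 and 324 CPM and the WT livers 218, 311, 311 and 360 CPM, all below every liver of their own genotype at ZT12. The peak stood at 11.6 h (SE 0.880) in KO livers and 11 h (SE 0.863) in WT livers, with edgeR adjusted p-values of 0.00337 and 0.0172. The shared fit gave a peak 1.48-fold above the trough (edgeR adjusted p = 2.17e-05).

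Among small subunit members, Rps4x, an X-linked gene, had 341, 367, 421 and 423 CPM in KO livers at ZT0 and 581, 633, 679 and 801 CPM in KO livers at ZT12, groups that did not overlap. In WT livers Rps4x had 387, 406, 449 and 463 CPM at ZT0 and 430, 436, 742 and 937 CPM at ZT12, groups that did overlap. Rps6, the target of the S6 kinases downstream of mTORC1, had 191, 196, 242 and 243 CPM in KO livers at ZT0 and 313, 314, 327 and 329 CPM at ZT12. In WT livers Rps6 had 224, 245, 247 and 274 CPM at ZT0 and 270, 271, 314 and 394 CPM at ZT12. Its shared amplitude was 0.20 (SE 0.04), less than that of Rps4x at 0.28 (SE 0.05). Rps19 and Rps26, both mutated in human Diamond-Blackfan anaemia, had shared amplitudes of 0.27 and 0.28 (SE 0.05 each). Rps26 had 133, 144, 179 and 185 CPM in KO livers at ZT0 and 224, 255, 261 and 269 CPM at ZT12, and in WT livers 146, 159, 178 and 202 CPM at ZT0 and 200, 226, 266 and 273 CPM at ZT12. Rpsa, also known as the laminin receptor, had 477, 534, 553 and 638 CPM in KO livers at ZT0 and 822, 862, 865 and 959 CPM at ZT12. In WT livers Rpsa had 585, 599, 619 and 704 CPM at ZT0 and 695, 808, 941 and 1080 CPM at ZT12. Rps3, at the mRNA entry of the small subunit, had a shared amplitude of 0.21 (SE 0.07, edgeR adjusted p = 0.0303), and Rps27 and Rps27l had 0.29 (SE 0.07) and 0.33 (SE 0.09).

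Among large subunit members, Rpl10, which joins the subunit last, had a shared amplitude of 0.24 (SE 0.05), and Rpl5 and Rpl11 had 0.26 (SE 0.07) and 0.31 (SE 0.08). All were called. Rpl37 peaked at 8.92 h (SE 1.26) in KO livers and 9.96 h (SE 1.02) in WT livers, and was called in WT livers (edgeR adjusted p = 0.0192) and not in KO livers (adjusted p = 0.0689). The 12 members not called in the shared fit included Rpl39, Rps28, Rpl7a, Rpl8, Rpl14, Rplp2, Rplp0, Rpl18, Rps13, Rpl28 and Rps2. Rpl39, which lines the exit tunnel of the new protein, came nearest, with an amplitude of 0.23 (SE 0.08, edgeR adjusted p = 0.0622). Rps2 had an amplitude of 0.07 (SE 0.07) and Rpl28 one of 0.02 (SE 0.09).

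**Figure D4:**
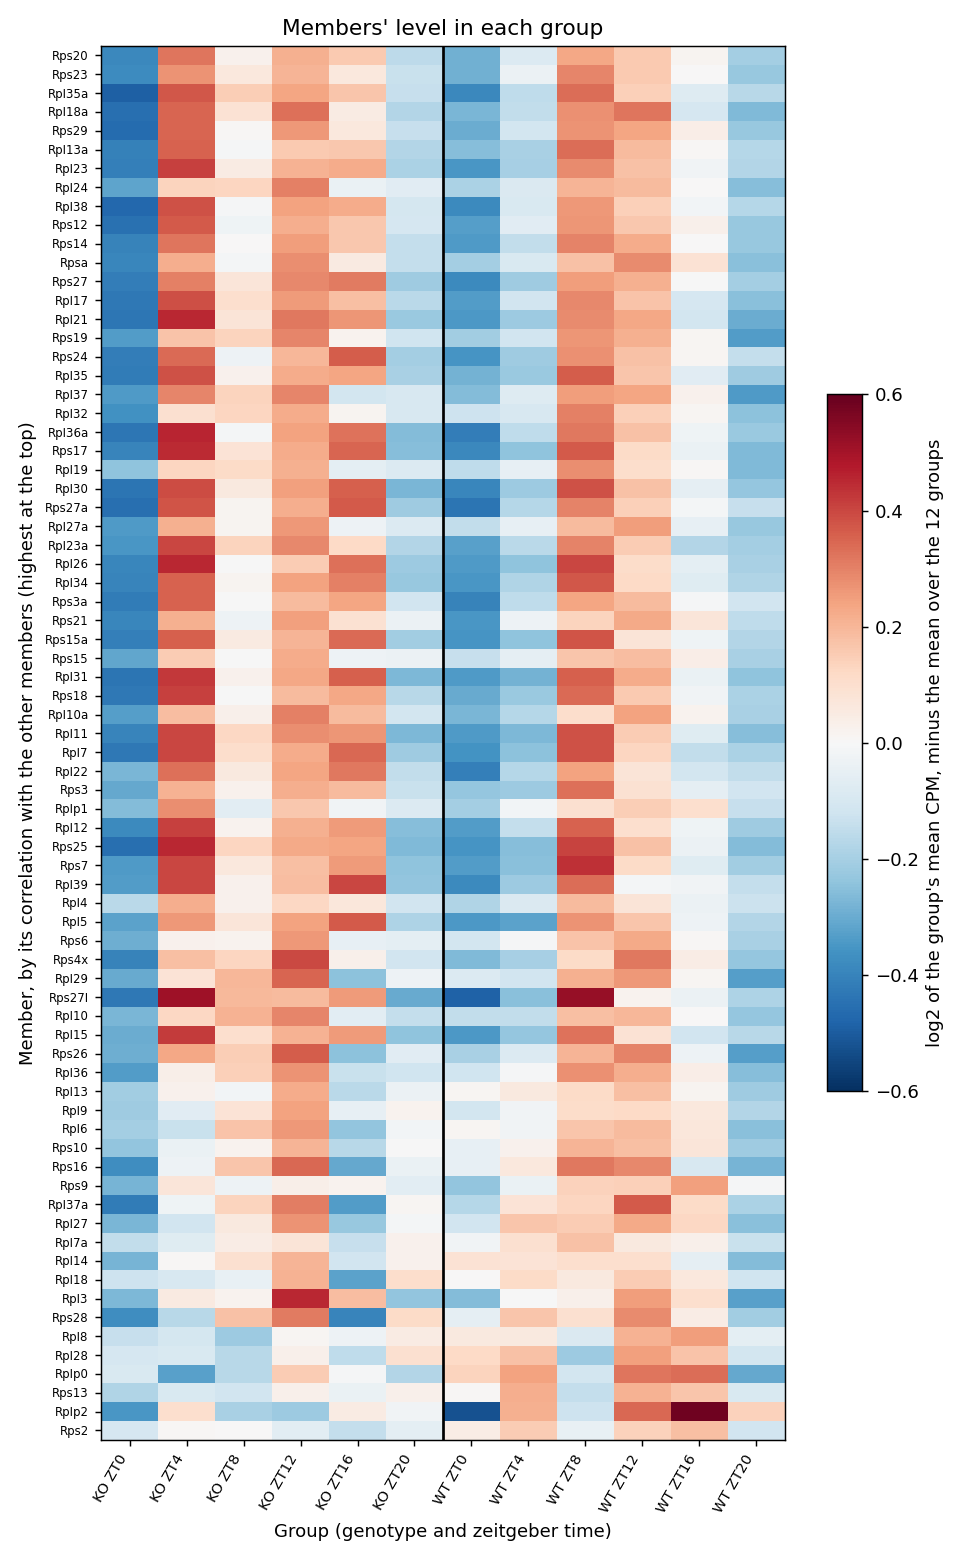
Level of 74 members (rows) in each of the 12 groups (columns, KO left and WT right, times in order), as log2 of the group's mean CPM minus the mean over groups. Rows are ordered by correlation with the other members, with Rps20 (0.97) near the top and Rps2 (−0.25) last, and the upper rows are low at ZT0 in both genotypes while the lowest rows vary otherwise.

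Within groups, members also varied together from liver to liver. The correlation of log2 CPM deviations from group means over 48 libraries had a median of 0.65 between pairs of members, against 0.00 between pairs of 9737 expressed genes. Libraries are the points of these correlations, so they carry what the libraries share, including depth and GC slope. Rps20 and Rps23 were among the closest to the mean of the other members, with correlations of 0.97 and 0.96. Rps2 (−0.25), Rplp2 (−0.19), Rps13 (−0.18), Rplp0 (−0.14) and Rpl28 (−0.10) ran against it. Single livers show the contrast: in KO ZT4 replicate 1 Rps25 had 273 CPM, the lowest of the 4 KO livers at ZT4, while Rplp2 had 252 CPM, Rps2 876 CPM and Rplp0 527 CPM, each the highest of the 4. Of the genes outside the set, Hint1 (0.92), Rpl36al (0.91), Pfdn5 (0.91), Btf3 (0.90) and Naca (0.90) correlated best with the members' mean among 9660 ranked, and Ndst1 (−0.86), Man2b2 (−0.81), Tor1aip1 (−0.81), D430042O09Rik (−0.80) and Ift172 (−0.80) were most opposite. Rpl36al is itself a ribosomal protein gene whose symbol lies outside the pattern.

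This shared variation moved with the GC slope of the libraries. In a fit with the slope as a covariate, its own term was called for 64 of 77 members, where 69.7% of all genes were called, so a call is no mark of these genes. The term was below 0 for 51 of those called and above 0 for 13, and ran from −0.87 (Rps27l) to 1.10 (Rplp2) log2 units per unit of slope. The 13 members called above 0 had a median GC content of 54.6% and the 51 called below 0 one of 50.2%, and the correlation of GC content and term across the 77 members was 0.45. The 6 libraries of lowest slope (3 KO and 3 WT) held 2.74% to 4.06% of counts in the members and the 6 of highest slope (1 KO and 5 WT) 2.25% to 3.23%. Of the 12 members not called in the shared rhythm, 10 were among the 13 with a slope term called above 0, which is 83.3% of the first list and 76.9% of the second.

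**Figure D5:**
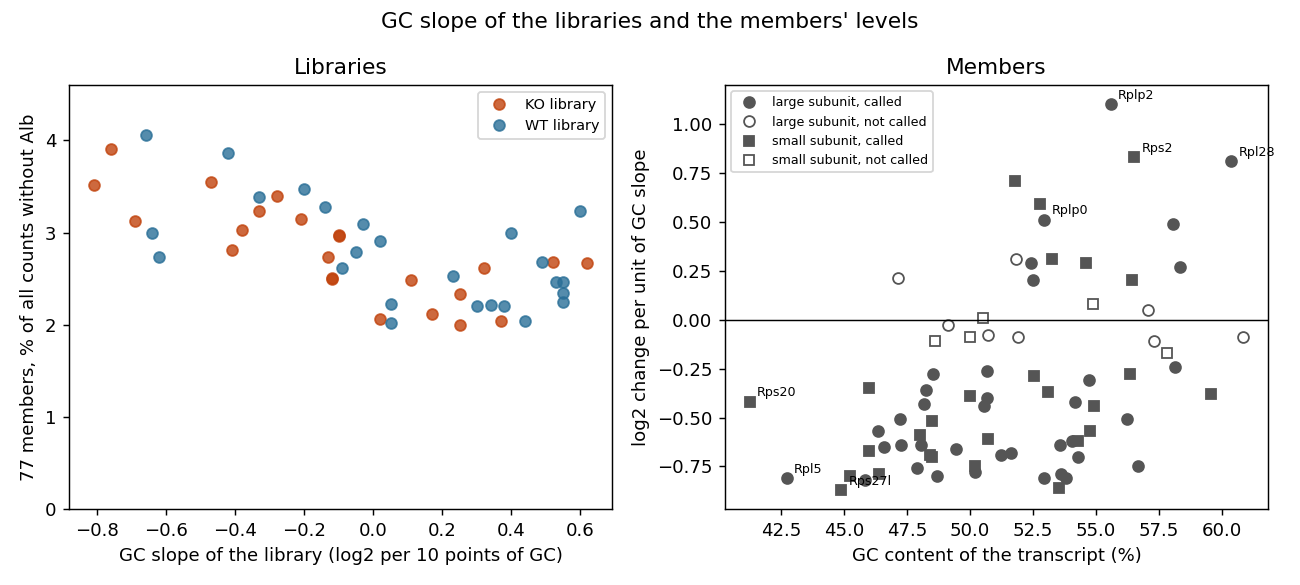
Left, the members' summed share of counts (y axis, percent) against the GC slope of each library (x axis, log2 per 10 points of GC), KO and WT. Right, the change of each member per unit of slope (y axis, log2) against the GC content of its transcript (x axis, percent), from −0.87 in Rps27l to 1.10 in Rplp2.

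The rhythm was recomputed with the slope in the model. The shared rhythm then called 52 of 77 members (67.5%), where 47.2% of all genes were called, and 46 of them were among the 65 called without it. The median amplitude in the count model was 0.17 with the slope and 0.25 without. In KO livers it was 0.13 with the slope and 0.23 without, and in WT livers 0.20 with the slope and 0.28 without. With the slope, 9 members were called in KO livers, where 21.2% of genes were, and 4 of these had been called without it. In WT livers 34 were called, where 29.8% of genes were, and 17 of these had been called without it. Of the 12 members not called before, 6 were called with the slope: Rpl7a, Rplp0, Rps28, Rps13, Rps2 and Rplp2. All 77 members then peaked between 8 and 14 h, again with no share over all genes beside it. Rpl3, Rps4x, Rps6, Rps19, Rps26 and Rpsa, named above, had edgeR adjusted p-values from 2.7e-05 to 0.000906 with the slope. Without the 6 libraries of lowest and the 6 of highest slope, which left 2 to 4 livers a group, the shared rhythm called 67 members, all 65 of the main fit among them, where 54.8% of all genes were called. The median amplitude was then 0.29. KO and WT livers taken alone called 52 and 57 members, where 26.7% and 34.8% of genes were called.

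Neither age nor body weight had a term called for any member by edgeR, with 7 and 20 members at an unadjusted p under 0.05. Over all genes these terms were called for 0.0366% and 0%. The share of all genes with such an unadjusted p is not given here, so the 7 and 20 are a description. The weight term was below 0 for 75 members, with a median of −0.0424 log2 units per g, and KO mice weighed 24.2 ± 3.57 g (SD, n = 23) against 21.8 ± 2 g for WT mice (SD, n = 25). With weight in the model, the rhythm in KO livers called 35 members, where 19.3% of genes were called. The ZT20 mice were younger, and without that time the shared rhythm called 51 members, where 39.2% of genes were called. The rhythm in WT livers then called none, with no share over all genes given here.

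Other genes of the pathway were read from lists by function, chosen with earlier results of these data known. None of the pathway lists held a gene called in KO against WT over all times. Of ribosomal proteins outside the pattern, 4 of 6 were called in the shared rhythm, namely Rpl36al (amplitude 0.25, peak 8.75 h), Rpl22l1 (0.31, 11.5 h), Fau (0.22, 9.85 h) and Gnb2l1, the small subunit scaffold Rack1 (0.19, 10.8 h). Fau and Gnb2l1 also stand on the next list. Of translation factors and other 5′ TOP mRNAs, 7 of 23 were called, where 43.7% of all genes were. The called gene of smallest p was Vim, which encodes vimentin, with a peak at 18.3 h, and 5 of the 7 peaked between 8 and 14 h. Among these, Naca and Btf3, the 2 chains of the nascent chain binding complex, peaked at 9.75 and 8.83 h, while the elongation factors Eef1a1 (edgeR adjusted p = 0.244) and Eef2 (adjusted p = 0.0937) were not called. Of ribosome biogenesis genes, 18 of 37 were called, near the 43.7% of all genes, and 1 of the 18, Ncl, peaked between 8 and 14 h (11.4 h). The called genes of smallest p were Ltv1 (peak 1.57 h), a factor of small subunit assembly, and Nop2 (19.6 h) and Nop14 (20.7 h), which act on rRNA precursors. Most of the others peaked between 18.9 h (Nolc1) and 21.3 h (Mybbp1a). The rest, among them Dkc1 (7.25 h) and Nhp2 (6.93 h), peaked before 8 h.

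Of RNA polymerase I genes, which make rRNA, 7 of 13 were called, against 43.7% of all genes, and 2 of the 7 peaked between 8 and 14 h. The smallest p were those of Taf1b (peak 4.43 h), Polr1e (21.4 h) and Cd3eap (22.1 h). Of 26 regulators, 13 were called, near that background, and 4 of the 13 peaked between 8 and 14 h. Larp1, which binds 5′ TOP mRNAs, peaked at 21.9 h with an amplitude of 0.46 (edgeR adjusted p = 0.00036), and Mlst8, a subunit of mTORC1, at 22.9 h with 0.29 (adjusted p = 0.000714). Of the called inhibitors of mTORC1 signalling, Ddit4, Sesn2 and Akt1s1 peaked at 16.3 h, 18.3 h and 22 h with amplitudes of 0.91, 0.48 and 0.26. Deptor and Sesn1 peaked at 10.9 h and 11.6 h with amplitudes of 0.14 and 0.21. Mitochondrial ribosomal proteins, which belong to a separate ribosome, were called for 52 of 76, and 22 of the 52 peaked between 8 and 14 h. Of 7 feeding and fasting genes 5 were called, against 43.7% of all genes, among them Angptl4 (peak 17.7 h) and Igfbp1 (19.9 h).

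Markers of other cells were read beside these results. In the shared rhythm, which called 43.7% of all genes, 3 of 9 hepatocyte, 1 of 8 Kupffer cell and macrophage and 1 of 10 lymphocyte markers were called. So were 8 of 8 neutrophil, 6 of 8 stellate cell and fibroblast, 7 of 7 sinusoidal endothelium and 4 of 5 cholangiocyte markers. Of adipocyte, exocrine pancreas and erythroid markers, 1 of 3, 1 of 2 and 0 of 5 were called. The fitted peak lay between 8 and 14 h for 4 of 9 hepatocyte, 3 of 8 Kupffer cell, 4 of 10 lymphocyte and 1 of 8 stellate cell markers and for none of the others, called or not. By single genotype, 8 neutrophil markers were called rhythmic in KO livers and 0 in WT livers, where 17% and 16.3% of all genes were. The test of the difference in rhythm called 0 of them. Each of the 8 had an SD above its mean in both genotypes. Mpo, for example, had 1.57 ± 7.28 CPM in KO livers and 1.15 ± 2.52 CPM in WT livers (SD). The calls of neutrophil markers, here and in the shared rhythm, can therefore rest on very few livers. The neutrophil markers summed to 2.02 to 590 CPM in KO livers (median 7.18) and 1.97 to 474 CPM in WT livers (median 8.06). The endothelial ones summed to 117 to 293 CPM in KO livers (median 213) and 130 to 285 CPM in WT livers (median 199). In KO against WT over all times, 1 lymphocyte marker, Ighm, was called (lower in KO livers, log2 −1.63, SE 0.44, edgeR adjusted p = 0.0488), and no other marker was. Ighm had 8.99 ± 3.87 CPM in KO livers and 71.2 ± 240 CPM in WT livers (SD), so its WT mean rests on few livers. The lymphocyte markers summed to 6.52 to 34.5 CPM in KO livers (median 18.5) and 10.5 to 1240 CPM in WT livers (median 18.2). The part of these cells in the members' levels was not tested.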

How the data were processed

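PolyA RNA of 48 mouse livers was sequenced from stranded libraries. Counts of reads for each gene were used as supplied. Their totals were nearly equal across libraries, and whether they are raw was not tested. CASAVA, STAR 2.4.1d and build mm9 are named in the submitters' processing notes. The counting program, and whether depth was made equal, are not given in the sources used here. Libraries held 12841969 to 13009797 counts without Alb, whose values are not plain counts and which was left out of sizes and tests.

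Counts were tested in R 4.3.3 with edgeR 4.0.16 (quasi-likelihood, TMM factors 0.892 to 1.11, filterByExpr, Benjamini-Hochberg over 13646 genes, threshold 0.05), in 1 model of 12 group means and 1 of a mean and a 24 h cosine per genotype. The functions were tested on simulated data. CPM use the scaled sizes, and amplitudes come from least squares on log2 CPM (prior count 2). GC content and coding length come from APPRIS principal transcripts of GENCODE M21, for all 77 members (1 looked up by symbol). Replicates are livers whose labels carry their own age and weight, and p-values measure the spread between them.

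Named were the 5 members of smallest p on each side over all times, 3 per single time, interaction and rhythm difference, 5 per rhythm, members by role, and the most and least typical and highest and lowest members. For other lists up to 3 genes of smallest p were named. Rps27l at ZT4 and the members listed as not called stand outside single-time rules and were chosen with values seen. The same holds for other list genes (Ncl, Dkc1, Nhp2, Nolc1, Mybbp1a, Sesn1, Sesn2, Deptor, Akt1s1, Eef1a1, Eef2, Rpl22l1, Mrpl16, Mrps2 and Mrps35). Values of 3 members are not reported here by name and are left out of plots that name members, while all counts and tests include them. The members, lists and tests were chosen with earlier results of these data known. Alternatives were DESeq2 1.42.0, RLE scaling, scaling without the members, no filter, covariates (GC slope, age, weight), a replicate block and leaving out each library; the shared rhythm, leaving out 12 libraries of extreme GC slope and leaving out ZT20 were added after the data had been seen.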

Additional observations from a re-analysis of the deposited data

Results flagged for a closer look

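In 209 groups of 4 or 5 livers and named members tested, 5 held a liver set far from the others by Dixon's criterion at 95%, where chance alone flags about 1 group in 20. Rpl8 had 488 CPM in KO ZT4 replicate 1, against 293 to 320 CPM in the other KO livers at ZT4. This is also the library whose omission led to 23 members called at ZT4, where 24.6% of all genes were called too. The GC slope of this library was 0.52. Rps6 had 307 CPM in KO ZT8 replicate 4, against 255 to 262 CPM in the others. Rpl5 had 495 CPM in KO ZT20 replicate 3, against 337 to 349 CPM, in a library with a GC slope of −0.41. Rpl37a had 255 CPM in WT ZT4 replicate 2, against 295 to 297 CPM, and 249 CPM in WT ZT12 replicate 3, against 373 to 396 CPM. The part of the GC slope in these values was not tested.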

How the results depend on the processing

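No alternative that kept all 48 livers or left out the 12 extreme libraries called a member in KO against WT, over all times, at a single time, in the interaction or in the difference in rhythm. Leaving out single livers, this held except at ZT4, with 0 to 23 called, 23 being the count without KO ZT4 replicate 1. Without that liver, 24.6% of all genes were called at ZT4 too. The rhythms of single genotypes depended on the setting. In WT livers 18 members were called (16.3% of all genes). With the GC slope it was 34 (29.8% of genes), without the 12 libraries of extreme slope 57 (34.8%), and for any difference among times 0 (8.55%). In KO livers 9 were called (17% of all genes). By DESeq2 it was 14 (21.1%), with weight 35 (19.3%), without the 12 libraries 52 (26.7%), and for any difference among times 4 (9.73%). For the next settings no share over all genes is given here. With no count filter 8 members were called in WT livers and 2 in KO livers, and without ZT20 0 and 5. Leaving out each library gave 6 (without WT ZT12 replicate 1) to 37 (without WT ZT20 replicate 2) in WT livers. In KO livers it gave 1 (without KO ZT0 replicate 1) to 34 (without KO ZT16 replicate 3), and for the shared rhythm 57 to 66. The cause was not tested.

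The 49 named results had 2830 alternatives, of which 2776 gave the same result, 45 a weaker one and 3 a stronger one. Of the 45 weaker ones, 32 came from leaving out 1 library. In 6 alternatives the sign changed, none of them called: with the GC slope Rpl15 (−0.0018), Rpl5 (−0.0043) and Rplp2 (0.01), with replicate block and GC slope Rpl23a (−0.0028), with weight Rpl37a (0.01), and at ZT12 without the 12 libraries Rplp2 (0.15). The fit with a replicate block called 0 members in each comparison of KO and WT, and it could not be fitted to the rhythms, since numbers are nested in times. Whether the numbers pair the livers is not given: 22 of 23 same-numbered pairs were of the same age and 13 had a correlation over 0.1, but not every pair did (−0.49 to 0.60, median 0.16), so the block was kept as an alternative. At a single time the median SE of 0.23 limits what can be seen.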
